A study of Mus musculus with 3 samples.

Results

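Transcripts of 9 receptors for circulating hormones, local peptides and autonomic neurotransmitters were followed in adult mouse ventricular cardiomyocytes (ACMs) exposed to a cytokine in culture. The receptors were chosen by gene name among the 56748 genes of the count table: *Bdkrb1* and *Bdkrb2* for kinins, *Adrb1*, *Adra1a* and *Adra1b* for catecholamines, *Agtr1a* for angiotensin II, *Ednra* and *Ednrb* for endothelins, and *Chrm2* for acetylcholine. All 9 were found, each under 1 gene identifier. The cells were wild type and came from hearts of mice of both sexes aged 8 to 10 weeks. They were plated on laminin for 3 to 4 h in medium with 5% serum, then held in serum-free medium with the contraction inhibitor BDM (10 mM) and 0.1% BSA. For 16 h they received vehicle (BSA alone), human IL-6 at 10 ng/mL or mouse oncostatin M (OSM) at 10 ng/mL. RNA of several samples was pooled, and each condition was sequenced as 1 poly-A selected library. The libraries held 24939980 counts with vehicle, 26362446 with IL-6 and 30773001 with OSM.

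These receptors span the cell membrane and act through G proteins. In the ventricle, β1-adrenergic receptors couple to Gs and raise cyclic AMP, which increases rate and force, whereas muscarinic M2 receptors couple to Gi and Go, lower cyclic AMP and open an inwardly rectifying potassium channel through the βγ subunits. The α1-adrenergic, angiotensin, endothelin and kinin receptors couple mainly to Gq, which activates phospholipase C, releases calcium through IP3 receptors and turns on protein kinase C, a route long studied in hypertrophic growth. IL-6 and OSM are cytokines that signal through gp130 and the JAK-STAT pathway. The transcripts of the receptors set, in part, how a myocyte responds to hormones and neurotransmitters.

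OSM reordered the receptors. With OSM, *Bdkrb2*, the gene of the kinin B2 receptor, rose 14.7-fold over vehicle, and *Chrm2*, the gene of the M2 receptor, fell to 0.192 of its vehicle level, 5.21-fold lower. No other receptor passed 2-fold, and with IL-6 none did. A gene was called when the whole 95% counting interval of its ratio lay beyond 2-fold, and 8 of the 9 receptors had the 10 counts over a pair of libraries that a comparison required. In OSM against vehicle, 1 of these 8 was called higher, where 3.7% of 15537 compared genes were, and 1 was called lower, where 5.46% were. In IL-6 against vehicle, 0 of 8 were called in either direction, where 1.77% of 15472 genes were called higher and 1.74% lower. In OSM against IL-6, 1 was called higher and 1 lower, where 4.24% and 5.44% of 15544 genes were. With 8 genes these counts do not set the receptors apart from other genes, and the result given here is the size of the *Bdkrb2* and *Chrm2* ratios. The receptors were chosen with earlier results of these data known, so these sizes are a description and not independent support. The median log2 ratio of the compared receptors was -0.49 in OSM against vehicle, beside 0.00 over all compared genes, and -0.05 in IL-6 against vehicle. Since each condition is 1 library of pooled RNA, no difference has a replicate check, the intervals cover counting error only, and fewer cells of a type cannot be told apart from less RNA per cell. The OSM and IL-6 ratios share the vehicle library.

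**Figure D1:**
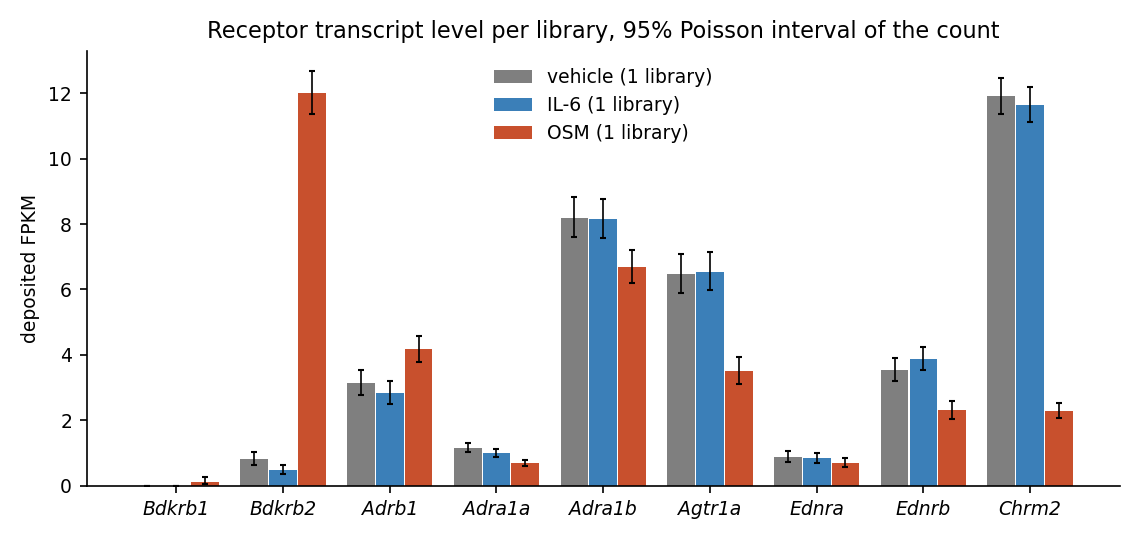
Deposited FPKM (fragments scaled to gene length and library size, vertical axis, from 0) of the 9 receptor genes in the vehicle, IL-6 and OSM libraries, 1 library each; bars are the values and error bars the 95% Poisson interval of the count. *Bdkrb2* stands at 0.813, 0.487 and 12.01 FPKM, and *Chrm2* at 11.9, 11.6 and 2.30 FPKM; no interval is drawn where the count is 0.

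The order of the receptors by level per gene length was the same with vehicle and IL-6 and different with OSM. With vehicle, *Chrm2* was highest at 11.9 FPKM, followed by *Adra1b* at 8.19, *Agtr1a* at 6.47, *Ednrb* at 3.54, *Adrb1* at 3.13, *Adra1a* at 1.16, *Ednra* at 0.881 and *Bdkrb2* at 0.813 FPKM. *Bdkrb1* had 0. The 95% Poisson intervals of neighbours in this order overlapped for *Ednrb* and *Adrb1*, for *Adra1a* and *Ednra*, and for *Ednra* and *Bdkrb2*, so that these pairs are not ordered by the counts. With OSM, *Bdkrb2* moved from rank 8 to rank 1 at 12.01 FPKM, followed by *Adra1b* at 6.69, *Adrb1* at 4.17, *Agtr1a* at 3.50, *Ednrb* at 2.31 and *Chrm2* at 2.30 FPKM, with *Ednra* and *Adra1a* both at 0.691 and *Bdkrb1* at 0.117 FPKM. Here the intervals overlapped for *Adrb1* and *Agtr1a*, for *Ednrb* and *Chrm2*, and for *Ednra* and *Adra1a*. *Bdkrb2* made up 2.25% of the FPKM summed over the 9 receptors with vehicle, 1.38% with IL-6 and 37.0% with OSM, while *Chrm2* made up 33.0%, 32.9% and 7.07%. The sum itself was 36.1, 35.4 and 32.5 FPKM, and in counts scaled to library size alone it was 164, 162 and 122 CPM.

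Kinins are peptides cut from kininogen by kallikreins. The B2 receptor (*Bdkrb2*) binds bradykinin and is the constitutive form in most tissues, and the B1 receptor (*Bdkrb1*) binds the des-Arg kinins and is known as an inducible form in inflamed tissue. *Bdkrb2* had 78 counts with vehicle, 50 with IL-6 and 1360 with OSM. The OSM library was high and the other libraries low, and the interval of the OSM level, 11.4 to 12.7 FPKM, lay far from 0.643 to 1.02 FPKM with vehicle. The log2 ratio of OSM against vehicle was 3.88 (95% counting interval 3.55 to 4.22). It ranked 31 from the top among 12508 protein-coding genes with counts in both libraries, of 12706 compared. Ranks here and below leave out genes with 0 counts in a library of the pair. Against IL-6 the log2 ratio of *Bdkrb2* was 4.62 (4.22 to 5.06), a 24.6-fold difference that ranked 16. With IL-6 itself the ratio to vehicle was -0.74 (-1.28 to -0.21), on the lower side of equal levels but not beyond 2-fold, from 50 against 78 counts. *Bdkrb1* had 0 counts with vehicle, 0 with IL-6 and 5 with OSM. The 95% Poisson interval of a count of 0 reaches up to 3.69 counts, or 0.148 CPM with vehicle and 0.140 CPM with IL-6. That of the 5 OSM counts, 1.62 to 11.7, reaches below this limit, so no difference in *Bdkrb1* was detectable at this depth.

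The kinin receptor genes lie in tandem on the forward strand of mouse chromosome 12, in GRCm39 coordinates of the authors' annotation *Bdkrb2* at chr12:105529485-105561496 and *Bdkrb1* at chr12:105569344-105571687, 7848 bases further on. In GENCODE M39 the canonical *Bdkrb2* transcript has 3 exons, of which exons 2 and 3 carry the coding sequence, and *Bdkrb1* has 2 exons with the coding sequence in exon 2. The next protein-coding gene, *Atg2b*, which encodes an autophagy lipid-transfer protein on the opposite strand, had 1332, 1247 and 896 counts and a log2 ratio of -0.82 (-0.94 to -0.70) in OSM against vehicle. The RefSeq promoter table (GRCm38.p6, 250 bases before to 50 after each gene start) holds 6 of the 9 receptor genes: *Bdkrb2*, *Chrm2*, *Adrb1*, *Ednra*, *Ednrb* and, with 2 starts, *Adra1b*. *Bdkrb1*, *Adra1a* and *Agtr1a* have no entry. Each of the 7 windows matched GRCm39 at 1 place on its chromosome. They were searched on both strands for TTCNNNGAA, the letters that STAT dimers bind, and for TGANTCA, the letters of AP-1. Neither motif can contain the other, and a match is a description of the letters, not a binding site. TTCNNNGAA was found in 0 of the 7 windows and in 8.30% of the 32851 windows of the table, and TGANTCA in 1 of the 7 and in 7.81% of all.

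The upstream stretches are shown for *Bdkrb2*, the receptor with the largest rise, and for *Adra1b*, the receptor with the TGANTCA match, which did not pass 2-fold in any comparison. For *Bdkrb2* they are the 202 bases outside annotated exons, on the forward strand at chr12:105529181-105529382 (GRCm39), with neither motif. For *Adra1b* they are the 250 bases before the outer start, on the reverse strand at chr11:43792065-43792314 (GRCm39), with the match at -198 to -192 from the start in capitals. The stretch before *Chrm2* (chr6:36364769-36365018, GRCm39) lies in annotated exons for all of its 250 bases and is not shown.
Bdkrb2: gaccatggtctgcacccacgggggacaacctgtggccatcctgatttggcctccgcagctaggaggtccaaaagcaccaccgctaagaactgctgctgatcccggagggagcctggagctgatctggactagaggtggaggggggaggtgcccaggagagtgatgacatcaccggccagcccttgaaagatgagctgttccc
Adra1b: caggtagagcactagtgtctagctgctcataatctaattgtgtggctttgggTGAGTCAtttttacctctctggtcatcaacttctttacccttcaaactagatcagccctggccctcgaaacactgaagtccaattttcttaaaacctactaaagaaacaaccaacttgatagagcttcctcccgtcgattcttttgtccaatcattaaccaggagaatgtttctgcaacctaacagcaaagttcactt

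Catecholamines act on the myocyte through 3 of the receptors. *Adrb1* encodes the β1 receptor, the main target of noradrenaline in the ventricle and of β-blockers. It had 268 counts with vehicle, 260 with IL-6 and 421 with OSM, or 3.13, 2.84 and 4.17 FPKM. The OSM library was the highest, with a log2 ratio to vehicle of 0.40 (0.18 to 0.63), above equal levels and short of 2-fold. *Adra1b*, which encodes the α1B receptor, had 701, 747 and 676 counts and a ratio of -0.30 (-0.45 to -0.15) in OSM against vehicle. *Adra1a*, which encodes the α1A receptor, the subtype tied to adaptive responses in mouse myocytes, had 257, 234 and 180 counts and a ratio of -0.76 (-1.04 to -0.48). In OSM against vehicle the β1 receptor therefore lay on the opposite side of equal levels from both α1 receptors. A ratio of 2 genes within a library does not depend on how libraries are scaled. *Adrb1* over *Adra1b* was 0.382 by FPKM with vehicle, 0.348 with IL-6 and 0.623 with OSM, a 1.63-fold difference between OSM and vehicle (95% conditional interval 1.35 to 1.97). *Adrb1* over *Adra1a* was 2.69, 2.87 and 6.04, a 2.24-fold difference (1.74 to 2.89). These genes differ in length, 3382 against 8728 bases, and against genes of near length their log2 ratios in OSM against vehicle were closer, 0.27 and -0.42. Between IL-6 and vehicle the same ratios of ratios were 0.910 (0.742 to 1.12) and 1.07 (0.827 to 1.37), and both intervals held equal ratios. The level summed over the 3 adrenergic receptors was 12.5 FPKM with vehicle, 11.98 with IL-6 and 11.6 with OSM.

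*Agtr1a* encodes the angiotensin II type 1A receptor, the target of the sartan drugs and the main mediator of angiotensin effects in the mouse heart. It had 456 counts with vehicle, 494 with IL-6 and 291 with OSM, or 6.47, 6.54 and 3.50 FPKM. The vehicle and IL-6 libraries had overlapping levels and the OSM library was below both. The log2 ratio of OSM against vehicle was -0.90 (-1.11 to -0.68), and against IL-6 -0.91 (-1.12 to -0.69). Both estimates were close to 2-fold lower, with intervals that reached across it, so the gene was not called. Its near-identical mouse copy *Agtr1b*, whose reads counting could confuse with those of *Agtr1a*, had 0 counts in each library, and so had *Agtr2*, the gene of the type 2 receptor.

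Endothelins are vasoconstrictor peptides made by endothelium and, under load, by myocytes. *Ednra* encodes the type A receptor, the myocyte form in most species, and *Ednrb* the type B receptor, which also clears the peptide and is abundant on endothelium. *Ednrb* had 382, 448 and 294 counts with vehicle, IL-6 and OSM, and *Ednra* 122, 124 and 113. Per length, *Ednrb* exceeded *Ednra* 4.02-fold with vehicle, 4.64-fold with IL-6 and 3.34-fold with OSM. The log2 ratio of OSM against vehicle was -0.63 (-0.85 to -0.40) for *Ednrb* and -0.36 (-0.74 to 0.02) for *Ednra*. The *Ednra* interval held equal levels, so no difference was detectable at 113 to 124 counts, and the *Ednrb* interval lay below equal levels without reaching 2-fold. The ratio of the pair differed 0.831-fold (0.610 to 1.13) between OSM and vehicle, an interval that also held equal ratios, and 0.720-fold (0.531 to 0.978) between OSM and IL-6, an interval that did not.

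*Chrm2* encodes the M2 receptor, through which the vagus slows the heart and opposes adrenergic drive. It had 1823 counts with vehicle, 1910 with IL-6 and 415 with OSM, the largest counts of any receptor with vehicle and with IL-6. The vehicle and IL-6 levels, 11.9 (11.4 to 12.5) and 11.6 (11.1 to 12.2) FPKM, overlapped, and the OSM level, 2.30 (2.08 to 2.53) FPKM, was far below both. The log2 ratio of OSM against vehicle was -2.38 (-2.54 to -2.23), and against IL-6 it was -2.34 (-2.50 to -2.19). The ratio to vehicle ranked 184 from the bottom of 12508 protein-coding genes with counts in both libraries. With IL-6 against vehicle the log2 ratio of *Chrm2* was -0.03 (-0.13 to 0.06), the narrowest interval of the receptors. The call of *Chrm2* was lost when the intervals were widened for a biological coefficient of variation of 0.4, and that of *Bdkrb2* was kept. Within a library, *Adrb1* over *Chrm2*, the β1 against the M2 transcript, was 0.263 by FPKM with vehicle, 0.244 with IL-6 and 1.82 with OSM, a 6.89-fold difference between OSM and vehicle (5.70 to 8.35). *Bdkrb2* over *Chrm2* was 0.0683, 0.0418 and 5.23, a 76.5-fold difference (59.3 to 99.7).

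The position of *Chrm2* bears on its counts. The gene lies on the forward strand at chr6:36365019-36505349 (GRCm39), and its 1 coding exon is exon 3 of the 3 in the canonical transcript. The noncoding gene *9330158H04Rik* overlaps it on the opposite strand and shares 1121 bases with its exons, 16.1% of the *Chrm2* exon bases in GENCODE M39. It had 174 counts with vehicle, 225 with IL-6 and 311 with OSM. The library protocol names a stranded and an unstranded option without saying which was used, so reads from the shared bases cannot be assigned to either gene with certainty. *Ednra* shares 218 exon bases (2.42%) with the opposite-strand gene *4933431K23Rik*, which had 19, 5 and 8 counts.

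**Figure D2:**
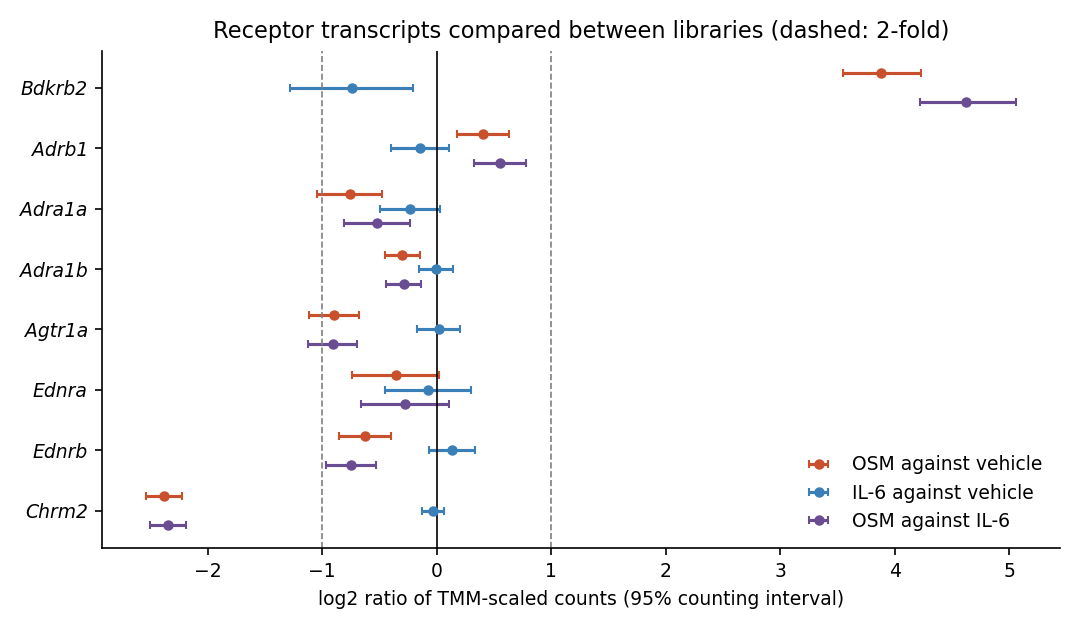
Log2 ratios of TMM-scaled counts (horizontal axis) for the 8 compared receptor genes in OSM against vehicle, IL-6 against vehicle and OSM against IL-6; points are estimates, bars the 95% counting interval, dashed lines mark 2-fold and the solid line equal levels. *Bdkrb2* at 3.88 and *Chrm2* at -2.38 lie beyond 2-fold in OSM against vehicle, and in IL-6 against vehicle 7 of the 8 intervals hold equal levels, all but that of *Bdkrb2*.

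With IL-6 the receptors stood near their vehicle levels. Whether the human IL-6 acted on these mouse cells was not tested. The log2 ratios of the 8 compared receptors to vehicle ran from -0.74 for *Bdkrb2* to 0.13 for *Ednrb*, a spread of 0.87, against a spread of 6.26 with OSM. For 7 of the 8 the interval held equal levels, compared with 1 of 8 in OSM against vehicle, *Ednra*. The widest of these 7, for *Ednra*, ran from -0.45 to 0.30, so each of these 7 intervals lay inside 2-fold. How closely these libraries match depends on the count. In IL-6 against vehicle, 11.5% of the genes with 10 to 99 counts over the pair were called, 0.363% of those with 100 to 999 and 0.0320% of the 6241 with 1000 or more. Every compared receptor had at least 100 counts over this pair, 6 of them under 1000. In OSM against vehicle the shares were 14.9%, 7.58% and 6.31%, and *Bdkrb2* and *Chrm2* fall in the last class. Calls resting on under 100 counts, which include several below, are therefore the least secure.

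The OSM library also held relatively fewer counts for long genes, which touches the receptors unequally because their annotated lengths run from 1435 bases (*Bdkrb1*) to 8728 (*Adra1a*). When protein-coding genes were put in order of length and divided into 8 classes, the median log2 ratio of OSM against vehicle went from 0.44 in the shortest class to -0.55 in the longest, while in IL-6 against vehicle it went from 0.02 to -0.03. Set against the 500 protein-coding genes nearest in length, *Bdkrb2* stood at 3.79 and *Chrm2* at -2.31, both called as before. *Adra1a*, the longest, moved from -0.76 to -0.42, and *Agtr1a*, shorter than all but *Bdkrb1*, from -0.90 to -1.15, still without a call. The share of counts from mitochondrial genes also differed, at 17.4% with vehicle, 16.1% with IL-6 and 13.6% with OSM. What produced these differences, and their part in the receptor ratios, was not tested.

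**Figure D3:**
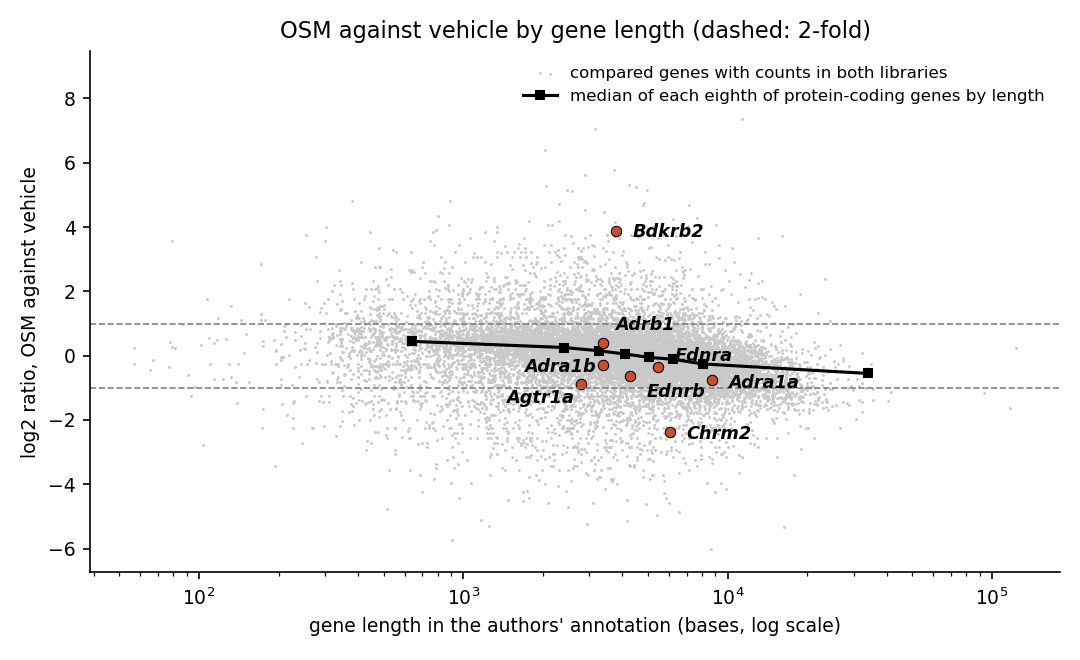
Log2 ratio of OSM against vehicle (vertical axis) against gene length in bases (horizontal log axis) for compared genes with counts in both libraries (grey), with the 8 compared receptors in orange; squares are the medians of 8 classes of protein-coding genes by length, placed at the geometric middle of each class, and dashed lines mark 2-fold. The medians fall from 0.44 to -0.55, while *Bdkrb2* (3.88) and *Chrm2* (-2.38) lie far from the medians at their lengths.

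Genes around the receptors were read from 6 lists with 194 genes, of which 133 could be compared in OSM against vehicle. Of these, 9 were called higher and 12 lower, beside 3.7% and 5.46% of all compared genes. In IL-6 against vehicle 3 of 134 were called higher and 3 lower, beside 1.77% and 1.74%. The list medians below leave out genes with 0 counts in a library of the pair. Related receptors had few counts. *Adra1d*, the α1D receptor, had 18, 16 and 33 counts with vehicle, IL-6 and OSM. *Mas1*, the receptor for angiotensin 1-7, was called lower in OSM against vehicle with a log2 ratio of -2.02 (-3.08 to -1.06), and in IL-6 against vehicle as well, from 41, 6 and 12 counts. *Chrm2* was the muscarinic receptor of these libraries: *Chrm1*, *Chrm3* and *Chrm5* had 0 counts throughout, and *Chrm4* had 17 counts with IL-6 and 0 in the other libraries.

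Among 48 other hormone and mediator receptors, 27 could be compared in OSM against vehicle, with 5 called higher and 1 lower and a median of -0.05. *P2ry6*, the UDP receptor coupled to Gq, had 6 counts with vehicle, 15 with IL-6 and 347 with OSM, a log2 ratio of 5.61 (4.47 to 7.06). It was the only one of the 5 with over 100 counts over the pair. *Ptger4*, the prostaglandin EP4 receptor, went from 3 counts to 60, a ratio of 4.07 (2.46 to 6.39). *Adora2a*, the adenosine receptor of type 2A, had 5, 7 and 38 counts and *Adora2b*, that of type 2B, 0, 0 and 13, with a log2 interval against vehicle that starts at 1.36; this last call was lost against genes of near length. *Npr1*, a natriuretic peptide receptor, had 9, 7 and 50 counts and a ratio of 2.23 (1.19 to 3.44). *S1pr2*, a sphingosine-1-phosphate receptor, had 47, 4 and 6 counts and a ratio of -3.22 (-4.73 to -1.99). The most abundant receptors of the list did not pass 2-fold: *Npr2*, the receptor for C-type natriuretic peptide, stood at 9.32, 9.43 and 7.91 FPKM, and *P2ry2*, the ATP and UTP receptor, at 6.58, 6.29 and 12.4 FPKM. With OSM, *Bdkrb2* at 12.01 FPKM was thus about as abundant as *P2ry2*.

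Of 29 ligand genes and enzymes that make or clear the ligands, 16 could be compared in OSM against vehicle, with 1 called higher, 1 lower and a median of -0.16. *Edn3*, which encodes endothelin-3, had 0, 4 and 16 counts, with a log2 interval of OSM against vehicle that starts at 1.70. *Ddc*, the decarboxylase of catecholamine synthesis, fell to 70 counts with OSM from 182 with vehicle and 161 with IL-6, a log2 ratio of -1.63 (-2.05 to -1.22). *Cpd*, which encodes carboxypeptidase D, was abundant, at 14.8, 13.4 and 7.76 FPKM, and was not called. Of 28 G-protein subunits, 21 were compared and 1 was called, *Gnai1*, the α subunit of a Gi protein through which M2 receptors act. It had 316, 277 and 138 counts and a ratio of -1.44 (-1.74 to -1.15). Its far more abundant relative *Gnai2* stood at 51.2, 47.9 and 67.0 FPKM and was not called, nor was *Gna12* at 43.5, 46.2 and 46.9 FPKM. The other Gi subunit gene, *Gnai3*, had 484, 635 and 856 counts and a ratio of 0.58, without a call. The Go subunit gene, *Gnao1*, had 180, 299 and 261 counts and a ratio of 0.29, also without a call.

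Effectors include the channel that M2 receptors open. Of 44 compared in OSM against vehicle, 2 were called higher and 7 lower, beside 3.7% and 5.46% of all compared genes, with a median of -0.49. *Kcnj3* and *Kcnj5* encode the subunits of the potassium channel that M2 receptors open through βγ subunits. *Kcnj3* had 795 counts with vehicle, 858 with IL-6 and 252 with OSM, a log2 ratio of -1.91 (-2.12 to -1.70), and *Kcnj5* had 2109, 2316 and 811, a ratio of -1.63 (-1.74 to -1.51). Receptor and both channel subunits thus fell in the OSM library and stood near vehicle in the IL-6 library, where *Kcnj3* was at 0.01 and *Kcnj5* at 0.04. Some of the called effectors make or degrade cyclic AMP. *Pde4b*, a phosphodiesterase that degrades cyclic AMP near β-adrenergic receptors, rose from 1140 counts with vehicle to 10201 with OSM, a ratio of 2.91 (2.83 to 3.00), with 1157 counts for IL-6. *Adcy4*, an adenylyl cyclase, had 47, 47 and 156 counts and a ratio of 1.48 (1.00 to 1.99). *Pde3a*, another cardiac phosphodiesterase, fell from 1425 counts to 598, a ratio of -1.50 (-1.64 to -1.36), but stood at -0.94 against genes of near length. The call of *Pde3a* was lost there, as were those of *Plcb4*, *Pde4a*, *Pde1c* and *Akap6*. *Pde4a* went from -1.36 to -1.14, an estimate still beyond 2-fold, and *Plcb4* from -1.36 to -0.98. *Pde1c* went from -1.18 to -0.36 and *Akap6* from -1.10 to -0.40. *Pde8a* at -1.21 and *Pkia* at -1.07 gained a lower call, which left 4 lower calls. *Kcnj3* at -1.79, *Kcnj5* at -1.62 and *Pde4b* at 3.35 kept their calls. The most abundant effectors, *Pln* at 130, 128 and 123 FPKM and *Prkar1a* at 110, 101 and 121 FPKM, were not called.

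Desensitisation genes, whose products uncouple and recycle occupied receptors, gave 1 called higher and 1 lower of 22 compared, with a median of 0.30. Both rest on few counts. *Rgs10*, which speeds the shut-off of Gi signals, had 7, 7 and 38. *Rgs4*, a related regulator, had 10, 4 and 0, with a log2 interval of OSM against vehicle that ends at -1.41. Against genes of near length the call of *Rgs10* was lost, at 1.80, and *Rgs3*, another regulator of this family, gained one, at 1.54. *Grk2*, the kinase that phosphorylates active β-adrenergic receptors, was the most abundant at 20.8, 22.4 and 24.9 FPKM and was not called, and neither was *Gpsm1* at 7.75, 8.36 and 9.62 FPKM.

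**Figure D4:**
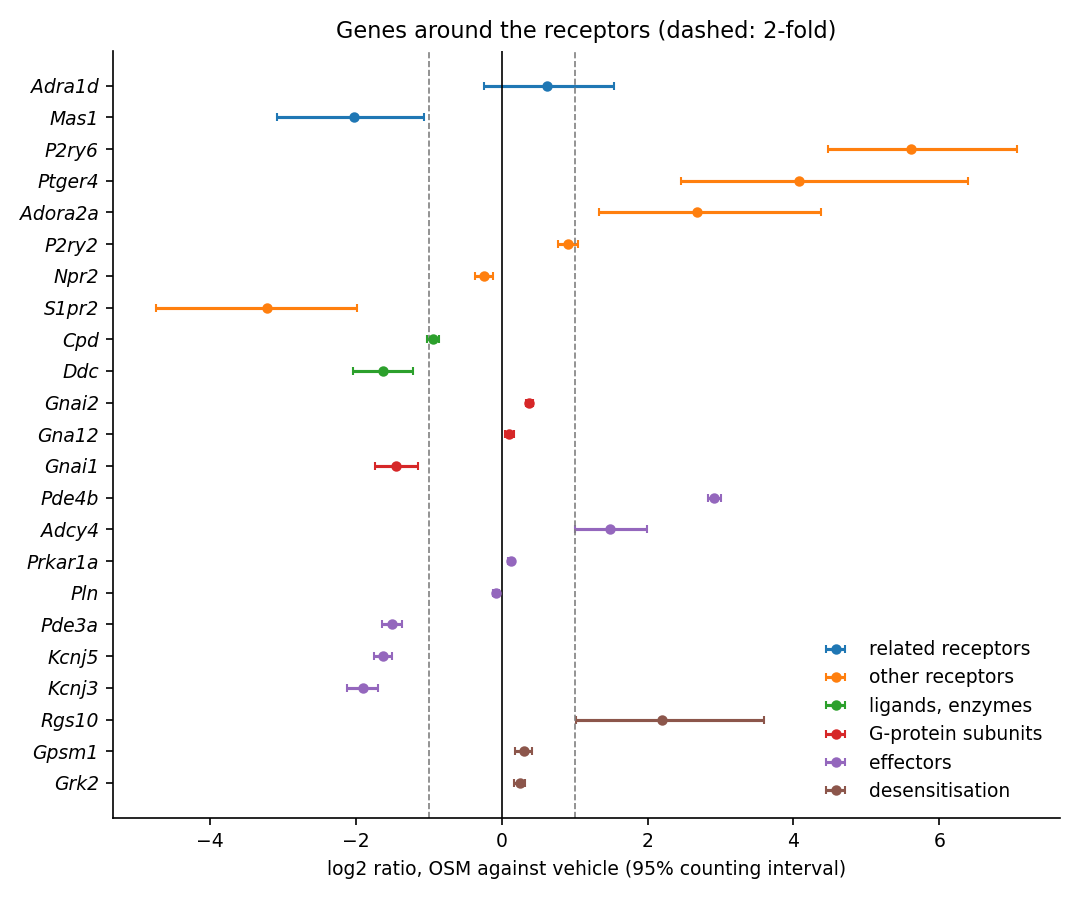
Log2 ratio of OSM against vehicle (horizontal axis) for genes named by rule from 6 lists around the receptors, coloured by list; points are estimates, bars the 95% counting interval, dashed lines mark 2-fold. *Pde4b* (2.91) and *P2ry6* (5.61) lie to the right, *Kcnj3* (-1.91), *Kcnj5* (-1.63) and *Gnai1* (-1.44) to the left; *Adora2b*, *Edn3* and *Rgs4*, with 0 counts in a library, are not drawn.

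The genes most like the extreme receptors were sought by distance in the pair of log2 ratios to vehicle, OSM and IL-6, over the 3 libraries, among protein-coding genes within 2-fold of the receptor's mean level. Nearest to *Bdkrb2* among 3580 genes was *Ptgs2*, which encodes cyclooxygenase-2, with 52, 34 and 798 counts and a distance of 0.186. Next were *S100a10*, a gene of the S100 family, with 82, 63 and 1412 counts (0.262), and *Sprr1a*, which encodes a small proline-rich protein, with 68, 48 and 1623 counts (0.474). Nearest to *Chrm2* among 3701 genes were *Esrrg*, a nuclear receptor of oxidative metabolism, with 1278, 1402 and 306 counts (0.0985), *Gm19410* with 2233, 2446 and 543 counts (0.115), and *Pdpr*, a regulator of pyruvate dehydrogenase phosphatase, with 2697, 3009 and 680 counts (0.173). The genes were chosen by these ratios, so that they share their receptor's pattern by construction.

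Cardiomyocyte markers outweighed those of every other cell type. All 12 had counts in each library and summed to 47540.5 CPM with vehicle, 48894.3 with IL-6 and 52500.2 with OSM, with *Atp2a2* the highest by CPM in each. Several of the receptors are also made by other cardiac cells, *Ednrb* by endothelium, *Ednra* and *Agtr1a* by smooth muscle and pericytes, and *Bdkrb2* by vessels and fibroblasts, so markers of these cells are given beside them. The 12 endothelial markers summed to 50.3, 52.7 and 56.9 CPM with vehicle, IL-6 and OSM, led by *Cdh5* with 280, 273 and 332 counts, none of them at 0. Smooth muscle and pericyte markers summed to 38.0, 41.4 and 45.2 CPM, mostly *Acta2*, with 677, 721 and 935 counts. *Higd1b* was at 0 in each library. Of the 8 compared in OSM against vehicle, 0 were called, with a median log2 ratio of 0.42. *Cspg4* had 111, 219 and 290 counts and a ratio of 1.14. Against genes of near length it was called higher, at 1.62. *Notch3* at -1.83 and *Rgs5* at -0.91 lay on the lower side without a call. Fibroblast markers summed to 6.86, 9.71 and 7.38 CPM, with *Dcn* at 49, 48 and 131 counts and *Ddr2* at 28, 90 and 20, and *Mfap5* was at 0 in each library. The median log2 ratio of the 7 compared fibroblast markers in OSM against vehicle was -0.35, and 0 were called. Macrophage markers summed to 23.7, 24.0 and 54.5 CPM. The OSM sum is higher through *Cd68*, with 382, 448 and 1419 counts, whose call was lost against genes of near length, at 1.16. *Csf1r* had 187, 166 and 209 counts and *Adgre1* 8, 0 and 6, while *Ptprc*, *C1qa*, *C1qb*, *C1qc*, *Cd163* and *Tyrobp* were at 0 in each library. T-cell markers summed to 9.14, 8.38 and 1.36 CPM, mostly *Cd28*, with *Cd3e*, *Cd3g*, *Trac* and *Skap1* at 0 in each library. The part of these cells in the receptor levels was not tested. Of the 12 cardiomyocyte markers, 2 were called lower with OSM, *Ttn* and *Ryr2*, the longest of them, and both calls were lost against genes of near length, at -0.82 and -0.71.

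**Figure D5:**
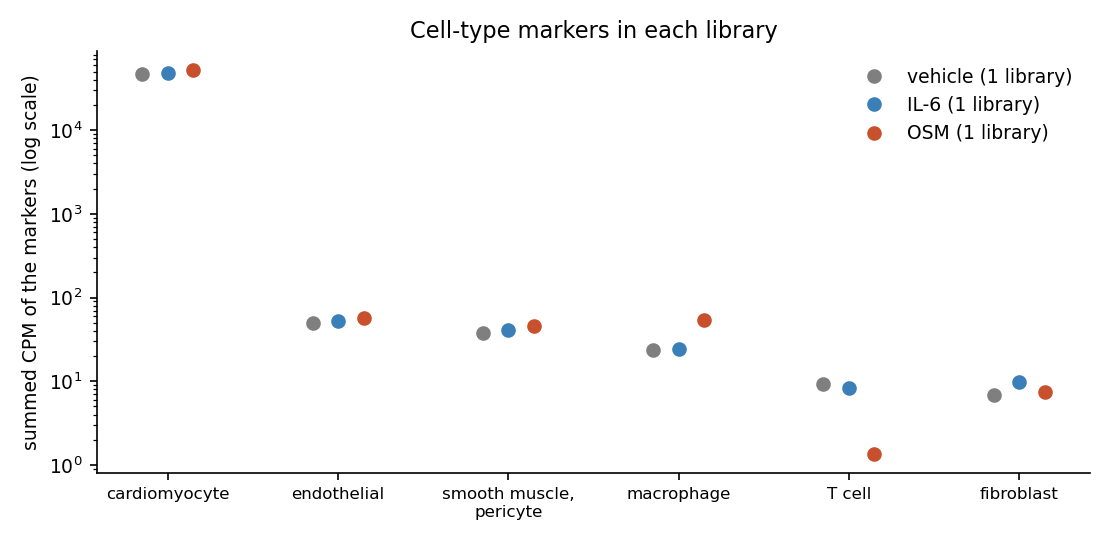
Summed CPM (counts scaled to library size, vertical log axis) of 12 markers for each of 6 cell types in the vehicle, IL-6 and OSM libraries, 1 point per library and no error drawn. Cardiomyocyte markers stand at 47540.5, 48894.3 and 52500.2 CPM and every other list is under 60 CPM; the macrophage sum with OSM, 54.5 CPM, is mostly *Cd68*.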

How the data were processed

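RNA from cultured ACMs was pooled and sequenced as paired reads, 1 library per condition. The count of fragments per gene was deposited by the authors without normalization, after mapping to GRCm39 and counting with featureCounts. The submitters' processing notes name fastp, HISAT2 2.2.1, featureCounts 2.0.6 and edgeR 4.0.16, and the study's methods give other versions of the last pair. The protocol names a stranded and an unstranded option without saying which was used, and no annotation release is named. FPKM values were deposited by the authors and equal count over gene length and 1 constant per library.

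From the counts, TMM factors were computed for each pair of libraries with edgeR 4.0.16 in R 4.3.3, and ratios with 95% Clopper-Pearson intervals given the sum with scipy 1.17.1. A comparison required 10 counts or more summed over the pair. No P-value is given, since 1 library per condition has no replicate spread and a ratio compares libraries. The calling rule was tested on simulated data with Poisson error only. Ratios between genes are conditional odds ratios. Members and gene lists were chosen with earlier results of these data known. Genes named were the 9 members, the genes called in OSM against vehicle and up to 2 of the most abundant per list, the 3 nearest in pattern to 2 members, leading and undetected markers, and genes whose call differs against genes of near length or that are set beside a named gene. The listed *Nherf1* was matched by its older symbol *Slc9a3r1*. Promoters are from RefSeq (GRCm38.p6) and were placed on GRCm39 by exact match. Protein sequences were not used here. Alternatives were DESeq2 1.42.0 size factors, library totals, no filter, point estimates, intervals beyond 1-fold, intervals widened for a biological variation (BCV) of 0.2 or 0.4, genes of near length, and TPM for ranks.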

Additional observations from a re-analysis of the deposited data

How the results depend on the processing

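No log2 ratio of a called receptor changed sign under any of the 8 alternatives. Only 3 of the 8 recompute the ratios: DESeq2 factors, library totals and genes of near length. Ratios left their counting interval 4 times, for *Adra1a* and *Agtr1a* against genes of near length, in OSM against vehicle and against IL-6. *Bdkrb2* ran from 3.79 to 3.88 in OSM against vehicle and was called higher under each alternative. *Chrm2* ran from -2.44 to -2.31 and lost its call with a BCV of 0.4, which left 0 receptors called lower in OSM against vehicle and in OSM against IL-6. With intervals beyond 1-fold, 2 receptors were higher and 5 lower in both of these comparisons, and 1 was lower in IL-6 against vehicle. Ranks by TPM equal those by FPKM by construction.

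Over all genes, higher and lower calls in OSM against vehicle were 1559 and 2049 by point estimates, 5141 and 5187 beyond 1-fold, 254 and 341 with a BCV of 0.2, and 98 and 111 with 0.4. In IL-6 against vehicle they were 1040 and 1023, 3031 and 2949, 96 and 138, and 29 and 32. In OSM against IL-6 they were 1555 and 1986, 5156 and 5161, 314 and 342, and 125 and 100. The rules differ by construction: point estimates use no interval, the 1-fold rule moves the limit, and a BCV widens the interval. With 1 library per condition the true spread between cultures is unknown. Depth left *Bdkrb1* without a comparison, and among the compared receptors *Ednra* had the widest interval in OSM against vehicle, -0.74 to 0.02 at 113 to 122 counts.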
